A study of Mus musculus with 4 samples.

Results

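The proteasome subunit genes of mouse were followed after knockdown of Cnot1 in embryonic stem cells (ESCs). Members were taken by name, as every gene of the deposited table whose symbol is Psma, Psmb, Psmc, Psmd, Psme, Psmf or Psmg followed by a number, with no measured value used. This gave 48 of the 50559 genes listed. They comprise 15 core particle subunits, the testis subunit Psma8 among them, 17 regulatory particle subunits, the 3 immunoproteasome subunits and the thymus subunit Psmb11. The others are 7 assembly chaperones, and 4 activators with 1 inhibitor.

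The proteasome degrades proteins that carry ubiquitin chains. Its core particle is a barrel of stacked rings, in which the outer alpha rings gate entry and the inner beta rings hold the peptidases, carried by Psmb5, Psmb6 and Psmb7. The regulatory particle caps the barrel. Its base unfolds substrates with a ring of ATPases, Psmc1 to Psmc6, and its lid removes ubiquitin. In cells exposed to interferon gamma, Psmb8, Psmb9 and Psmb10 can replace Psmb5, Psmb6 and Psmb7 to form the immunoproteasome, which favours peptides for MHC class I presentation. Transcription of the constitutive genes is raised by the factor Nfe2l1 when proteasome activity is short, and ESCs are known for a high proteasome activity.

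The labels give the cells as ESCs of the line E14, and the study's methods describe ESCs with a tdTomato reporter driven by the MERVL promoter. All libraries shared that line, the culture on gelatin in serum replacement with leukemia inhibitory factor, and lipid transfection. One group received a non-targeting siRNA (siNT, 2 libraries) and the other an siRNA against Cnot1 (siCnot1, 2 libraries), each at 150 nM with collection after 48 h. CNOT1 holds together the CCR4-NOT deadenylase, which shortens the poly(A) tails of mRNAs. Which of the siRNAs listed against Cnot1 was used is not given in the sources used here. The knockdown is transient.

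Library totals on genes lay between 32135824 and 32557440 counts. Values are given as CPM, which is a share of the library's counts, scaled by edgeR's TMM method (normalized CPM), and differences as log2 fold changes of siCnot1 against siNT, with negative values for lower levels in siCnot1. A gene was called where edgeR's quasi-likelihood test gave a p under 0.05 after Benjamini-Hochberg adjustment over the 18144 genes tested. Cnot1 was at 949 ± 51.7 normalized CPM (SD, n = 2) in siNT and at 188 ± 5.14 (SD, n = 2) in siCnot1, which is 19.8% of the control. Summed over 8 ESC markers, CPM lay between 6324 and 6538 in siNT and between 5766 and 6057 in siCnot1. Of the 8, 6 were called lower, beside 14.7% of all tested genes. Markers of 2-cell-like cells, a minor state of ESC cultures, summed to 43.3 and 47.5 CPM in siNT and to 136 and 139 in siCnot1. Of these 6 markers, 5 were called higher, beside 15.0% of all tested genes. The part of these cell states in the values given here was not tested.

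Most proteasome genes had lower values in siCnot1, with a small median difference and log2 fold changes from -0.55 to 1.79. Of the 46 members tested, 24 were called lower (52.2% of the members, against 14.7% of all tested genes) and 2 were called higher (4.35%, against 15.0%). The remaining 20 did not pass the test, and Psmb8 and Psmb11 had too few counts to be tested. In all, 40 members had a log2 fold change below 0. The median was -0.17, equal to 88.9% of the siNT level, beside a median of 0.0084 over all tested genes. The siCnot1 libraries lay below both siNT libraries for 35 members (76.1%, against 31.2% of all tested genes) and above both for 4 (8.70%, against 32.7%). The study's own rule takes genes that changed at least 2-fold in either direction at an unadjusted p of 0.05 or less. The member that passed it was Psmb9, which was higher, as were 6.18% of all tested genes. A further 1.80% of all genes passed that rule as lower. The values are shares of bulk RNA libraries. Fewer cells with high proteasome expression, less proteasome RNA per cell and more RNA of other genes therefore cannot be told apart.

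**Figure D1:**
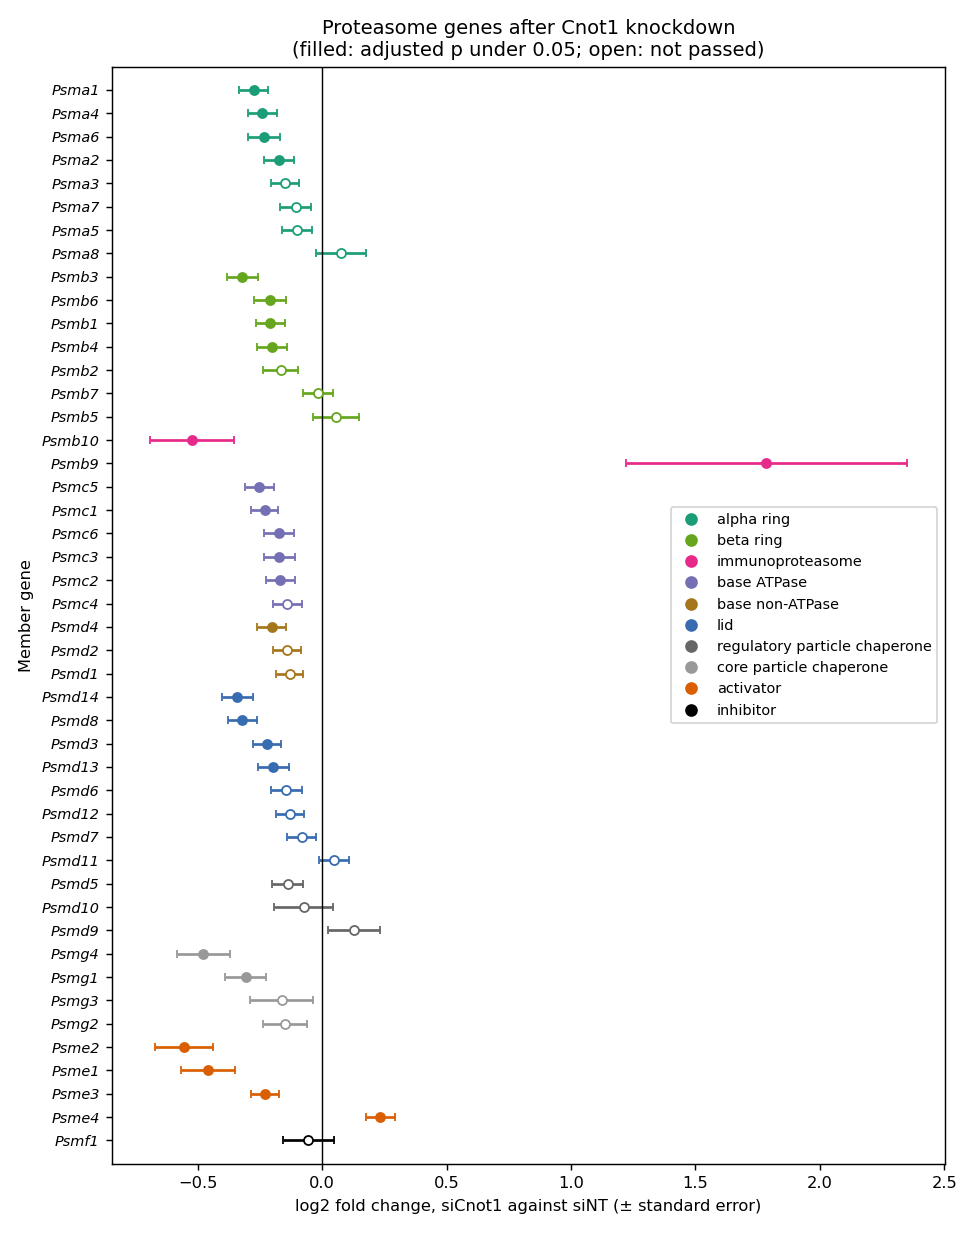
Log2 fold change of siCnot1 against siNT (horizontal axis) for each tested member, grouped by its place in the proteasome, with bars of 1 standard error, colours for the place and filled points for members that passed the test. Most constitutive subunits sit between -0.34 and 0, while Psmb9 stands at 1.79 and Psme4 at 0.23.

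The size of the general decrease depended on the scaling. With library totals in place of TMM, 7 members were called lower and 3 higher, and the median of all members moved to -0.063, while the median of all tested genes moved to 0.12. Relative to the median of all tested genes, the members' median was -0.18 under either scaling. With no filter on low counts 11 members were called lower. Fewer were also called with 1 library left out, at 2 lower without siNT replicate 1, 9 without siNT replicate 2, 4 without siCnot1 replicate 1 and 12 without siCnot1 replicate 2. Calls of 9 of the 26 members held under each of the 4 scalings tried, and these were Psma1, Psmb3, Psmd8, Psmd14, Psmg4, Psme1 and Psme2 as lower and Psmb9 and Psme4 as higher. Psmd8 was the member whose call also held with any 1 library left out and in each other setting tried.

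Proteasome transcripts are short and abundant, and such transcripts were lower in siCnot1 across the whole table by the fitted curve. The members tested had a median exon length of 1406 bases against 3361 over all tested genes, and a median log2 CPM of 7.52 against 3.58. A smooth curve of log2 fold change on exon length and mean expression, fitted over all tested genes, gave the members a median of -0.18, which is about the median they showed. Of the 46 members, 23 lay above their fitted value and 23 below it. After subtraction of the curve, the median was -0.0025 over the members, 0.049 in the core particle and 0.0042 in the regulatory particle. What links length and level to the change was not tested.

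**Figure D2:**
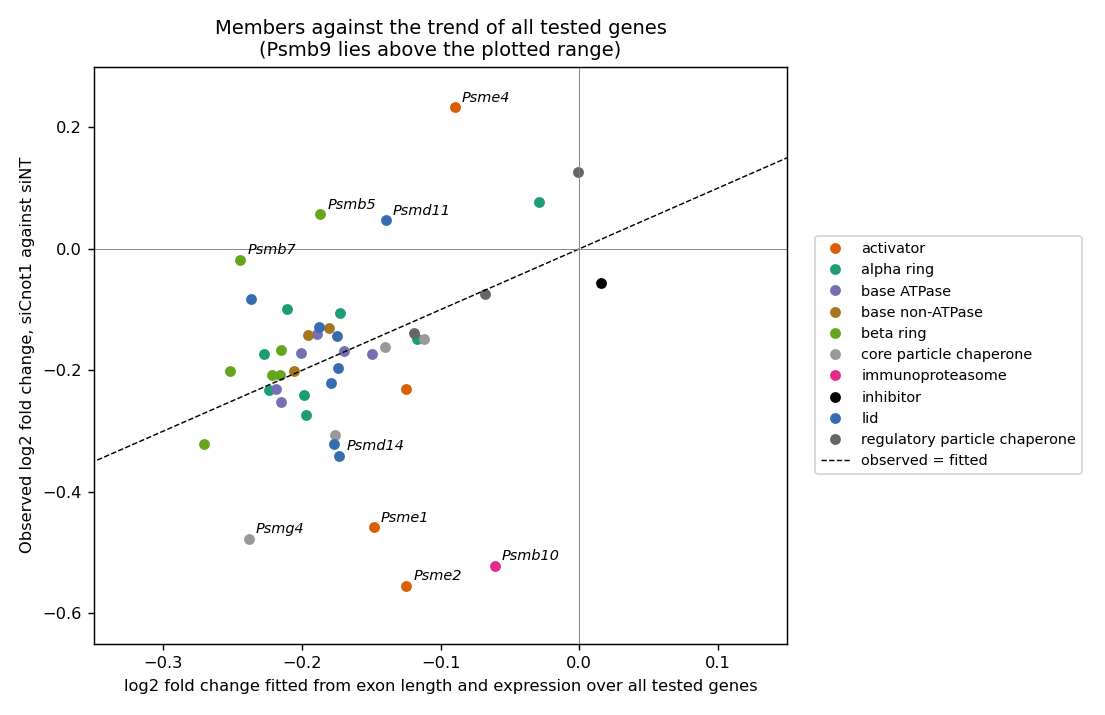
Observed log2 fold change (vertical axis) against the value fitted from exon length and expression over all tested genes (horizontal axis) for the tested members, coloured by role, with the line of equality. Most constitutive subunits lie near the line, with Psme4, Psmb5, Psmb7 and Psmd11 above it and Psme1, Psme2, Psmb10, Psmg4 and Psmd14 below it, and Psmb9 lies above the plotted range.

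The departures from the curve were largest outside the constitutive particle. Psmb9 lay 1.80 above its fitted value on the log2 scale and Psme4 0.32 above it. Of the 3 constitutive counterparts of the immunoproteasome peptidases, Psmb5 and Psmb7 lay 0.24 and 0.23 above their fitted values and Psmb6 0.0082 above its own. On the other side, Psmb10 lay at -0.46, Psme2 at -0.43, Psme1 at -0.31, Psmg4 at -0.24 and Psmd14 at -0.17 from the fitted value.

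Promoter sequences are shown for 6 members that changed by different amounts, so that members of each direction can be compared. They are the 250 bases before the annotated start, from RefSeq on GRCm38.p6, written 5′ to 3′ on the gene's strand, and the capitals mark the motif match named here. Of the 48 members, 40 had a window. Psmb9 (chr17:34187331-34187580, minus strand), which was higher, held none of 4 motifs searched, and neither did Psme1 (chr14:55578244-55578493, plus strand) or Psme2 (chr14:55591102-55591351, minus strand, the upstream one of its windows), which were lower. Psme4 (chr11:30771525-30771774, plus strand), which was higher, held an ETS match 53 bases before its start. Psmb3 (chr11:97703184-97703433, plus strand) held an interferon regulatory factor match 162 bases before its start, and Psmd14 (chr2:61711444-61711693, plus strand) an NRF1 match 79 bases before its start, and both genes were lower.
Psmb9: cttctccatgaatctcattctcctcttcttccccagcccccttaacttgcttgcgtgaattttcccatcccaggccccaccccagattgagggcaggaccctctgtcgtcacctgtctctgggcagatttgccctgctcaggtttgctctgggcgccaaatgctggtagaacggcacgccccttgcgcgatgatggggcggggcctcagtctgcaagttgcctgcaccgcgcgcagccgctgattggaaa
Psme1: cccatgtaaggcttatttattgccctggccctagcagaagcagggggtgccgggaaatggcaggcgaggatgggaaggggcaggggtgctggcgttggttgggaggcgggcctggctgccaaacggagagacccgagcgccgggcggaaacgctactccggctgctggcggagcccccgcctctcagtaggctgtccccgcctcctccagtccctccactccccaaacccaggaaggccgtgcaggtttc
Psme2: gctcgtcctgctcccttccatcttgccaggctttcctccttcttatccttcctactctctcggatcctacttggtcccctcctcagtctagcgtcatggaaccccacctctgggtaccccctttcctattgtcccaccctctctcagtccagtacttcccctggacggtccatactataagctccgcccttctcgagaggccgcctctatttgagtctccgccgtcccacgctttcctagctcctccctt
Psme4: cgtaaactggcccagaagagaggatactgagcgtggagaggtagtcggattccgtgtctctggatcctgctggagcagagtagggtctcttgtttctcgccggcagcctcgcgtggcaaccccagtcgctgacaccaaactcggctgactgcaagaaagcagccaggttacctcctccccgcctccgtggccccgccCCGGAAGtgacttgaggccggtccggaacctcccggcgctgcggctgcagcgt
Psmb3: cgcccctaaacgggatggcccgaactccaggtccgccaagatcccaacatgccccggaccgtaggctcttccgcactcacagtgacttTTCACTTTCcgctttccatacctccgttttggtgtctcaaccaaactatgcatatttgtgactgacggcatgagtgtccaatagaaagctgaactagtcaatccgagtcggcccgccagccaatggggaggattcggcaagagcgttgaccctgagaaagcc
Psmd14: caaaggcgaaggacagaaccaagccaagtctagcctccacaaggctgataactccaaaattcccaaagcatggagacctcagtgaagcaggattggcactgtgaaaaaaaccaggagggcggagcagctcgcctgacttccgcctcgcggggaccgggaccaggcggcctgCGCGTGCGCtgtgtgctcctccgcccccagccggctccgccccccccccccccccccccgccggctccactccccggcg

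The 4 motifs were searched on both strands as letters. A member was counted once if any of its windows held a match (43 windows in all). The shares over all genes are of single windows. The ETS site CCGGAAG was in 12 of the 40 matched members, 30% of them, against 6.91% of 32851 windows of all genes, and those members were 7 called lower, 4 not called and the 1 higher gene Psme4. The NRF1 site GCGCANGCG (nuclear respiratory factor 1, not Nfe2l1) was in 6 members (15%, against 5.16%), of which 4 were called lower. The core of the antioxidant response element, TGACNNNGC, which Nfe2l1 and Nfe2l2 recognise, was in 5 members (12.5%, against 10.2%), namely Psmb5, Psmb6, Psmc6, Psmd9 and Psmd12, of which Psmb6 and Psmc6 were lower. An interferon regulatory factor site, GAAANNGAA, was in 3 members (7.5%, against 7.13%). A match is a description of letters in these windows, and ETS and NRF1 matches occurred among members that were lower and among members not called.

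In the core particle 8 of 15 subunits were called lower and 7 did not pass the test, with a median log2 fold change of -0.17. Over all tested genes 14.7% were called lower, which is the share beside each count of lower members given below. In the alpha ring, whose subunits form the gate, 4 of 8 were lower. Psma1 had 208 and 203 normalized CPM in siNT and 165 and 175 in siCnot1 (log2 fold change -0.27, SE 0.058, adjusted p = 0.000909). The groups did not overlap, and its adjusted p was the smallest of the alpha ring. Psma4 had 209 and 208 normalized CPM in siNT and 172 and 181 in siCnot1 (-0.24, SE 0.058, adjusted p = 0.00265), also without overlap. Psma6 and Psma2 followed at -0.23 and -0.17. Psma3, Psma5 and Psma7 did not pass, and the testis subunit Psma8, which substitutes for Psma7 in germ cells, stood at 0.076 with an adjusted p of 0.618.

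In the beta ring 4 of 7 subunits were lower. Psmb3, a structural beta subunit, had 196 and 187 normalized CPM in siNT and 145 and 162 in siCnot1 (log2 fold change -0.32, SE 0.063, adjusted p = 0.000407), the lowest log2 fold change of the core. Psmb1, Psmb4 and Psmb6 stood between -0.21 and -0.20. The 3 peptidase subunits differed in their values. Psmb6, the caspase-like peptidase, had 241 and 212 normalized CPM in siNT and 190 and 202 in siCnot1 and was called (-0.21, adjusted p = 0.0161). Its call was lost with library totals (adjusted p = 0.236), with no filter (0.155), without siNT replicate 1 (log2 fold change -0.12, adjusted p = 0.311) and without siCnot1 replicate 1 or 2. Psmb7, the trypsin-like peptidase, had 317 and 289 in siNT and 287 and 311 in siCnot1 (-0.018, adjusted p = 0.861). Psmb5, the chymotrypsin-like peptidase, had 50.7 and 45.3 in siNT and 45.8 and 54.2 in siCnot1 (0.057, adjusted p = 0.697). The groups overlapped for Psmb5 and Psmb7, and the difference between these genes and Psmb6 was not tested. For Psmb5, the microRNA gene Mir686 lies in 12.5% of its exon length on the same strand and had no counts.

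In the regulatory particle 10 of 17 subunits were lower, with the same median of -0.17. All 6 base ATPases had siCnot1 libraries below both siNT libraries (31.2% of all tested genes did), and 5 were called lower (14.7%). Psmc5 had 296 and 273 normalized CPM in siNT and 235 and 243 in siCnot1 (log2 fold change -0.25, SE 0.058, adjusted p = 0.00199). Psmc1 had 371 and 359 in siNT and 305 and 317 in siCnot1 (-0.23, SE 0.055, adjusted p = 0.00251). Psmc2, Psmc3 and Psmc6 stood at -0.17, and Psmc4 missed the threshold at an adjusted p of 0.0702. Of the other base subunits, the ubiquitin receptor Psmd4 was lower (-0.20), while the scaffolds Psmd1 and Psmd2 did not pass at -0.13 and -0.14.

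In the lid 4 of 8 subunits were called lower. Psmd8 had 191 and 198 normalized CPM in siNT and 155 and 156 in siCnot1 (log2 fold change -0.32, SE 0.058, adjusted p = 0.000174). Psmd14, the deubiquitinase that cuts chains from substrates as they enter, had 188 and 187 in siNT and 140 and 157 in siCnot1 (-0.34, SE 0.062, adjusted p = 0.000203). The groups did not overlap for either gene, and these were the smallest adjusted p-values of the members. Psmd3 (-0.22) and Psmd13 (-0.20) were also lower. Psmd6 and Psmd12 stood at -0.14 and -0.13 without passing. Psmd7, the partner of Psmd14, had 511 and 485 in siNT and 449 and 492 in siCnot1 (-0.083, adjusted p = 0.306). Psmd11 had 209 and 213 in siNT and 209 and 226 in siCnot1 (0.048, adjusted p = 0.594), and it was called higher when library totals were used (0.15, adjusted p = 0.0406).

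Of the 4 chaperones that help to assemble the core particle, 2 were called lower. Psmg4 had 24.2 and 23.0 normalized CPM in siNT and 16.8 and 17.1 in siCnot1 (log2 fold change -0.48, SE 0.107, adjusted p = 0.00151). Psmg1 had 101 and 82.0 in siNT and 71.0 and 76.9 in siCnot1 (-0.31, adjusted p = 0.00612). Without siNT replicate 1 the log2 fold change of Psmg1 was -0.15 (adjusted p = 0.276), and its call was also lost without siCnot1 replicate 1 or 2, with library totals (0.0661) and with no filter (0.151). Psmg2 and Psmg3 stood at -0.15 and -0.16 and did not pass. The regulatory particle chaperones Psmd5, Psmd9 and Psmd10 did not pass, at -0.14, 0.13 and -0.074.

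The activators, which cap the core particle in place of the regulatory particle, held decreases and an increase. Psme2 had 18.9 and 21.0 normalized CPM in siNT and 14.0 and 13.2 in siCnot1 (log2 fold change -0.55, SE 0.117, adjusted p = 0.000845). Psme1, its partner in the interferon-inducible ring, had 44.3 and 34.1 in siNT and 28.5 and 28.5 in siCnot1 (-0.46, SE 0.108, adjusted p = 0.00229). The groups did not overlap for either gene, though the siNT libraries of Psme1 differed more from each other than the siCnot1 libraries did. Without siNT replicate 1 the log2 fold change of Psme1 was -0.26 and no longer called, and the call was also lost without siCnot1 replicate 1 or 2, at -0.46 each. Both genes lie on chromosome 14 on GRCm39, Psme1 at 55815951 to 55818984 on the plus strand and Psme2 at 55824897 to 55828558 on the minus strand. Psme2b, a gene named as a copy of Psme2, with 155 and 164 counts in siNT and 89 and 134 in siCnot1, was also lower (-0.62, adjusted p = 0.0471), and the value of Psme2 is uncertain where reads are shared between these loci.

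Psme3, the nuclear activator, had 291 and 295 normalized CPM in siNT and 243 and 257 in siCnot1 (log2 fold change -0.23, SE 0.056, adjusted p = 0.00304). Its call was lost with library totals (-0.12, adjusted p = 0.0852). With 1 library left out, its log2 fold change lay between -0.28 and -0.19. Psme4, a large single-chain activator linked to histone degradation, moved the other way. It had 295 and 326 in siNT and 368 and 363 in siCnot1 (0.23, SE 0.058, adjusted p = 0.00368), with both siCnot1 libraries above both siNT libraries. The call was lost without siNT replicate 1 (0.16), siCnot1 replicate 1 (0.22) or siCnot1 replicate 2 (0.24). Its exons share 156 bases, 2.04% of its length, with Erlec1 on the opposite strand. The strand setting of the counting is not given in the sources used here, and Erlec1 had 743 and 816 counts in siNT and 1021 and 900 in siCnot1, so reads of the 2 genes cannot be told apart there. The inhibitor Psmf1 did not pass (-0.056, adjusted p = 0.735).

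The immunoproteasome subunits were scarce in these cells and did not move as a group. Psmb8 had no counts in any of the 4 libraries, which allows a level of up to 0.0921 to 0.0934 CPM. Psmb9 had 0.514 and 0.191 normalized CPM in siNT, from 16 and 6 counts, and 1.58 and 0.867 in siCnot1, from 53 and 29 counts (log2 fold change 1.79, SE 0.564, adjusted p = 0.0188). Its values rested on few counts, and the siCnot1 libraries lay above both siNT libraries. Without any 1 of the 4 libraries, the log2 fold change stayed between 1.24 and 2.65 but the adjusted p rose to between 0.0533 and 0.319. Psmb10 had 10.3 and 8.33 normalized CPM in siNT and 5.97 and 6.99 in siCnot1 (-0.52, SE 0.169, adjusted p = 0.0219), without overlap. Its call was lost with library totals (adjusted p = 0.068) and without any 1 of the libraries, when the log2 fold change lay between -0.67 and -0.37. Psmb11, the thymus subunit, had 2 counts in a single siCnot1 library.

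Per unit of exon length, the immunoproteasome subunits were a minor share of the peptidase transcripts. Psmb9 was at 0.216% and 0.0915% of the FPKM of Psmb6, where FPKM is the count per kilobase of exon scaled to the library total, in siNT and at 0.843% and 0.433% in siCnot1. Psmb10 was at 2.70% and 2.40% of Psmb7 in siNT and at 1.73% and 1.87% in siCnot1. The share of Psmb9 was higher and that of Psmb10 lower in both siCnot1 libraries, with no test of these ratios at 2 libraries per group.

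**Figure D3:**
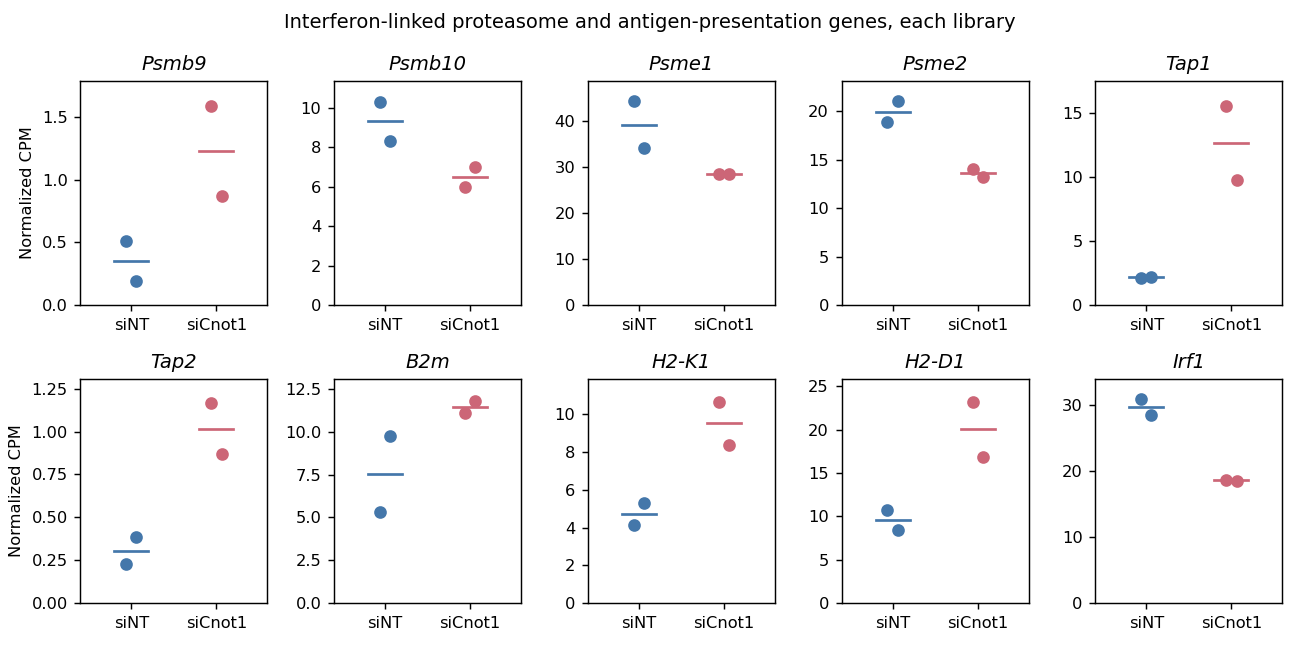
Normalized CPM in each library (points) of immunoproteasome, activator, interferon and antigen presentation genes that passed the test, in siNT and siCnot1. Axes are linear and start at 0, with a line at each group mean. Psme3 and Psme4, which also passed, and Irf9, Nlrc5 and Tapbp, which did not, are not drawn. Psmb9, Tap1, Tap2, B2m, H2-K1 and H2-D1 lie above their siNT libraries in both siCnot1 libraries, and Psmb10, Psme1, Psme2 and Irf1 lie below theirs.

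Psmb9 (GRCm39 chromosome 17, 34400961 to 34406304, minus strand) starts 226 bases from Tap1, a peptide transporter subunit read in the opposite direction. Tap1 had 2.12 and 2.23 normalized CPM in siNT and 15.5 and 9.77 in siCnot1 (log2 fold change 2.53, SE 0.215, adjusted p = 8.62e-09). Tap2, the other transporter subunit, had 0.225 and 0.383 in siNT and 1.16 and 0.867 in siCnot1 (1.73, adjusted p = 0.0233). The MHC class I genes H2-K1 and H2-D1 rose by 1.01 and 1.06 on the log2 scale (adjusted p = 0.000201 and 9.48e-06), and the light chain B2m by 0.60 (adjusted p = 0.0203). H2-K1 and H2-D1 are closely similar, so their counts are uncertain. With DESeq2 in place of edgeR, the adjusted p of Tap2 was 0.0657 and that of B2m 0.0565, and with no filter on low counts they were 0.076 and 0.277. The log2 fold change of B2m was 0.22 without siNT replicate 1 (adjusted p = 0.374) and 1.10 without siNT replicate 2, and its call was also lost without siCnot1 replicate 1 or 2. Tap2 lost its call without any 1 of the 4 libraries (adjusted p up to 0.227), H2-K1 without siNT replicate 1 (0.0802) and H2-D1 without siNT replicate 2 (0.0589). Irf1, which drives interferon-responsive genes, had 30.9 and 28.6 in siNT and 18.7 and 18.5 in siCnot1 (-0.67, adjusted p = 2.56e-05). Irf9, Nlrc5 and Tapbp did not pass. In this list of interferon and antigen presentation genes, 5 of 9 were higher and 1 lower, beside 15.0% and 14.7% of all tested genes. Markers of blood cells summed to 17.6 and 19.995 CPM in siNT and 28.8 and 26.4 in siCnot1, those of fibroblasts or feeder cells to 8.60 and 11.7 against 13.9 and 13.1 with Col3a1 at 0, and those of primitive endoderm to 8.73 and 6.70 against 13.8 and 12.5. Trophectoderm markers were at 15.1 and 17.4 against 8.90 and 10.05. Their part in the antigen presentation values was not tested.

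Of 4 genes that act in the transcription of proteasome genes, 3 were called higher (15.0% of all tested genes were) while the constitutive subunits were mostly lower. Nfe2l1 had 258 and 243 normalized CPM in siNT and 323 and 322 in siCnot1 (log2 fold change 0.37, SE 0.056, adjusted p = 2.65e-05). Ddi2, the protease that activates Nfe2l1, had 42.8 and 41.3 in siNT and 51.0 and 50.9 in siCnot1 (0.28, adjusted p = 0.0141). Nfe2l2 had 99.6 and 105 in siNT and 120 and 116 in siCnot1 (0.21, adjusted p = 0.0154). The groups did not overlap for these 3 genes, and Ngly1, which removes glycans from Nfe2l1, did not pass (-0.044). The calls of Ddi2 and Nfe2l2 were lost without any 1 of the 4 libraries, when their log2 fold changes lay between 0.25 and 0.30 and between 0.16 and 0.25.

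These antigen presentation and transcription genes belong to a list of genes related to the ubiquitin-proteasome pathway, of which 36 are reported and Paaf1 was not analysed here. Of the 36, 14 were called lower, 9 higher and 13 were not called, beside 14.7% lower and 15.0% higher over all tested genes, with a median log2 fold change of -0.075. Among subunits outside the naming rule, the ubiquitin receptor Adrm1 was lower (-0.22) and so was the assembly factor Pomp (-0.21), while Sem1 did not pass. Of 7 bound enzymes and adaptors 4 were lower, with Usp14 at -0.17, Ube3c at -0.17, Txnl1 at -0.23 and the nuclear import factor Akirin2 at -0.19. The calls of Usp14, Ube3c, Akirin2, Pomp and Ubqln1 were lost with upper-quartile scaling, library totals, no filter and the replicate block (adjusted p from 0.0574 to 0.0771 with the block), and those of Adrm1 and Txnl1 with library totals and no filter. Uchl5 and Zfand5 did not pass. Ecpas, an adaptor of the proteasome, was higher, at 65.9 and 72.3 normalized CPM in siNT against 89.7 and 86.6 in siCnot1 (0.35, adjusted p = 0.00056). The shuttle factor Ubqln1 (-0.16), the segregase Vcp (-0.24) and its cofactor Nsfl1c (-0.27) were lower. Of the ubiquitin and E1 genes, 4 of 5 were lower, and Rps27a, a fusion of ubiquitin with a ribosomal protein, had 690 and 600 in siNT and 460 and 480 in siCnot1 (-0.46, adjusted p = 5.18e-06). With 1 library left out, Rps27a kept its call each time, while Adrm1, Pomp, Usp14, Ube3c, Txnl1, Akirin2, Ecpas, Ubqln1, Vcp and Nsfl1c each lost theirs at least once. Ube3c was at -0.094 without siNT replicate 2 (adjusted p = 0.349).

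The levels of the members covered a wide range. In siNT, Psmd7 was highest at 299.9 ± 11.1 FPKM (SD, n = 2), followed by Psmb4 at 279.6 ± 22.4 and Psmb7 at 276 ± 18.3, and these 3 overlapped in their libraries. At the other end, Psmb9 was at 0.306 ± 0.198 FPKM and Psmb10 at 7.06 ± 1.05. The 46 members with counts in siNT make 45 neighbouring pairs in this order, and in 20 of these the siNT libraries did not overlap. FPKM is scaled by library totals and normalized CPM by TMM, so differences between the groups are not the same on the 2 scales.

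**Figure D4:**
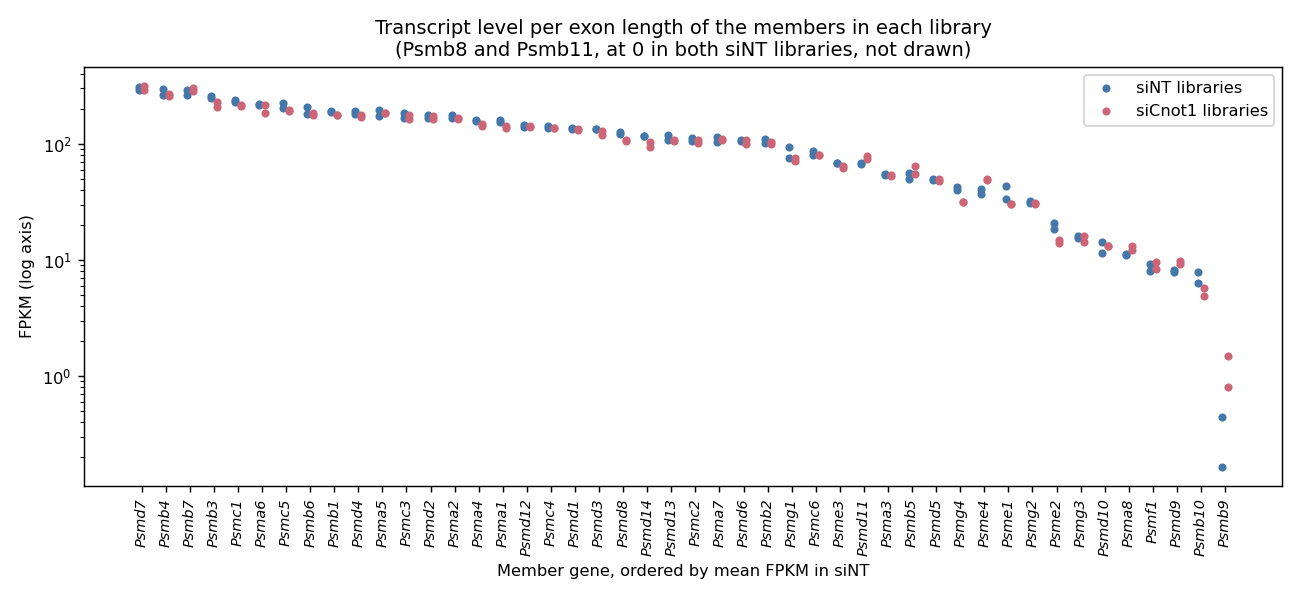
FPKM of each member with counts in siNT (log axis), ordered by its mean in siNT, with a point for each library. Levels run from about 300 FPKM for Psmd7 to under 1 FPKM for Psmb9 in siNT, and the groups differ little beside the range between members.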

How the data were processed

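Poly(A)+ RNA from 4 libraries of mouse ESCs, 2 per group, was sequenced after a second strand synthesis with dUTP, which marks the strand, per the labels, and the authors deposited raw counts of reads per gene, neither normalized nor pooled, with the exon length of each gene. The layout is that of featureCounts. The submitters' processing notes name fastp 0.19.4, HISAT2 2.2.1, DESeq2 1.40.2 and mm10, yet the gene positions in the table are those of GRCm39, and the strand setting of the counting is not given in the sources used here. Positions of genes are therefore GRCm39, and promoter positions are GRCm38.p6, the build of the RefSeq table. The methods name 2 independent biological replicates per group.

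Low genes were removed by filterByExpr at its minimum count of 10, which left 18144 of 50559, and edgeR 4.0.16 in R 4.3.3 was run on these with TMM scaling, the quasi-likelihood test, condition as the only term, and Benjamini-Hochberg adjustment over all of them. FPKM was computed from the counts, the deposited exon length and the library total. The length and expression curve is a loess fit (span 0.3) over all tested genes. A count of 3 per library, 0.0921 to 0.0934 CPM, was taken as the floor, which covers counting error only. The main edgeR fit was tested on simulated data with few changed genes, balanced in direction. That simulation does not test the choice of scaling or the other settings.

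Named with full statistics were the 10 members with the smallest adjusted p in each direction, all immunoproteasome subunits and activators, Cnot1, and the genes of the related list that passed. Other members are named with fewer values, and some genes of the related list are not reported here. The members and lists were chosen with earlier results of these data known. As alternatives, TMM was replaced by DESeq2's size factors, by library totals or by upper-quartile scaling, the filter was dropped or set to a minimum of 1 CPM in 2 libraries, and other settings were DESeq2 1.42.0, limma-voom (limma 3.58.1), the replicate number as a block, leaving out each library in turn, and removal of the curve.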

Additional observations from a re-analysis of the deposited data

How the results depend on the processing

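Of the 26 calls among the members, 6 held in each setting with all 4 libraries (Psma1, Psmb3, Psmd8, Psmd14, Psmg4 and Psme2) and Psmd8 alone also held with any 1 library left out. Members called lower numbered 24 with TMM, 7 with library totals and 11 with no filter on low counts, and those called higher numbered 2, against 0 with no filter and 1 with at least 1 CPM in 2 libraries, where Psmb9 was not tested. Without any 1 library, which leaves its group with 1 library assumed to vary like the other group, members called lower ranged from 2 (without siNT replicate 1) to 12 (without siCnot1 replicate 2) and members called higher from 0 to 1. With no filter the adjusted p was 0.128 for Psmb9, 0.0717 for Psme4 and 0.0917 for Psme1, and for Psmb10 it was 0.121 there and 0.0571 with DESeq2. Over all tested genes, 2719 were called higher and 2668 lower with TMM, 3999 and 1563 with library totals, and 1303 and 1450 with no filter. With library totals the medians were -0.063 over all members, -0.066 in the core particle and -0.064 in the regulatory particle. With the curve removed they were -0.0025, 0.049 and 0.0042. The immunoproteasome median was -0.51 with at least 1 CPM in 2 libraries, where Psmb10 alone was left. Without any 1 library the median of all members ranged from -0.21 to -0.15 and that of the immunoproteasome subunits from 0.29 to 1.14. The latter is the midpoint of Psmb9 and Psmb10 alone, which went in opposite directions (1.79 and -0.52 in the main fit).

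Library totals turned the sign of 11 genes that were not called, to 0.0078 (Psma5), 0.0018 (Psma7), 0.089 (Psmb7), 0.024 (Psmd7), 0.033 (Psmd10), 0.051 (Psmf1), 0.055 (Uchl5), 0.056 (Ubqln4), 0.067 (Nploc4), 0.062 (Ngly1) and 0.0092 (Irf9). Upper-quartile scaling turned Psmb7 to 0.0014. Nlrc5, near 0 throughout, became -0.0035 with size factors, -0.0047 with no filter, -0.0037 with DESeq2, -0.028 with limma-voom and -0.019 with the replicate block. Among called members, removal of the curve turned Psma2 to 0.054, Psmb1 to 0.014, Psmb4 to 0.051, Psmb6 to 0.0082, Psmc2 to 0.0012, Psmc3 to 0.030 and Psmd4 to 0.0042. Core members not called also turned, to 0.11 (Psma5), 0.068 (Psma7), 0.049 (Psmb2) and 0.23 (Psmb7). So did regulatory members not called, to 0.050 (Psmc4), 0.050 (Psmd1), 0.054 (Psmd2), 0.032 (Psmd6), 0.15 (Psmd7) and 0.059 (Psmd12). With 1 library left out, genes not called that changed sign ranged from -0.076 to 0.17 (Psmb5), -0.085 to 0.045 (Psmb7), -0.23 to 0.093 (Psmd10), -0.018 to 0.10 (Psmd11), -0.17 to 0.044 (Psmf1), -0.053 to 0.14 (Sem1), -0.013 to 0.16 (Zfand5), -0.045 to 0.13 (Ubqln2), -0.11 to 0.015 (Nploc4), -0.28 to 0.24 (Ngly1), -0.32 to 0.086 (Irf9) and -0.40 to 0.31 (Nlrc5).

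Whether same-numbered libraries of the groups were made together is not given in the sources used here. Their deviations correlated at 0.011 across tested genes. This value cannot settle the point, because counting error in genes with few counts enters it. With the replicate number as a block, 20 members were called lower and 2 higher, and Psma2, Psmc2, Psmc3 and Psmc6 lost their calls. The cause of the changes across settings was not tested.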

Other observations

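The neighbourhood of Psmb9 was looked at after its values were seen. Within 100000 bases on either side, 14 other genes are listed, of which 8 were tested and 3 were called higher (15.0% of all tested genes were), namely Tap1, Tap2 and the peptide loading gene H2-DMa. H2-DMa had 42 and 44 counts in siNT and 110 and 69 in siCnot1 (log2 fold change 0.96, SE 0.322, adjusted p = 0.0273 from edgeR). Brd2, a bromodomain gene with 8923 to 10892 counts per library, stood at 0.14 with an adjusted p of 0.0555. The spans of H2-DMa and Brd2 overlap on opposite strands. Whether reads of Brd2 enter the counts of H2-DMa was not tested, and the strand setting of the counting is not given in the sources used here. H2-DMb1, H2-Oa, H2-Ab1 and H2-Aa did not pass.

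Of 7 listed copies of members outside the naming rule, 2 had over 10 counts in a library. Besides Psme2b, the pseudogene Psma5-ps had 391 and 344 counts in siNT and 361 and 405 in siCnot1 (log2 fold change -0.041, adjusted p = 0.861 from edgeR).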
